A study of Mus musculus with 9 samples.

Results

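The protein genes of the small (40S) subunit of the cytoplasmic ribosome were followed in the hippocampus of mouse pups at postnatal day 21. The set was fixed as a list of 28 gene symbols, and all 28 were found among the 23412 symbols of the deposited expression table. All 28 were also among the 14336 genes that reached 1 TPM (transcripts per 1000000, a level scaled to transcript length and to the library total) in at least 3 of the 9 libraries, so no member was lost to the filter on low values. Every library came from a hippocampus labelled as wild type (WT). The 3 control samples carried the treatment label sham. In the PFOS P1-7 group (3 samples) the dams were gavaged with perfluorooctane sulfonate, a persistent fluorinated surfactant, at 1 mg/kg body weight per day on days 1 to 7 after birth, and the pups took it in with the milk. In the PFOS P8-14 group (3 samples) the same dose was given on days 8 to 14. The stated question was which postnatal window is sensitive to PFOS. The labels do not say whether the samples are separate animals or give a litter, sex or batch, so the p-values below cover no more than the spread among these libraries, which may be partly technical.

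The small subunit binds the messenger RNA, holds the decoding site where codon and tRNA are matched, and joins the large (60S) subunit once the start codon has been found. Each protein is needed at about 1 copy per subunit, and the genes are scattered over the genome: the 28 members lie on 14 chromosomes. Mammalian ribosomal protein mRNAs belong to the TOP class, named for a terminal run of pyrimidines (C and T in the DNA) at the very start of the transcript, through which mTORC1 signalling sets how much of the mRNA is translated. In neurons, ribosomal protein mRNAs are also found in dendrites and axons, where local translation takes place. Dissected tissue was sequenced in bulk, so fewer cells of a type and less RNA per cell cannot be told apart in any value below.

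The sequence around the transcription start is shown first, since the pyrimidine run is the feature by which these genes are known. RefSeq promoters (build GRCm38.p6, the same coordinates as mm10) were matched for 24 of the 28 members, with 28 start sites in all. Rps14, Rps20, Rps27a and Rps29 are named only. Each line gives 30 bases, 15 on either side of the annotated start, 5′ to 3′ on the strand of the gene, with the longest pyrimidine run in capitals. The first 6 members were chosen because a long run crosses the start, and the last 4 because their levels matter below.
Fau (chr19:6057932-6057961, + strand): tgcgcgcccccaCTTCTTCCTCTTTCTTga
Rps10 (chr17:27635230-27635259, - strand): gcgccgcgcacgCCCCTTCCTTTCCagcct
Rps18 (chr17:33955651-33955680, - strand): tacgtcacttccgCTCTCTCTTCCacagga
Rps6 (chr4:86857353-86857382, - strand): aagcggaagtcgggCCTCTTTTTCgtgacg
Rps27 (chr3:90213634-90213663, - strand): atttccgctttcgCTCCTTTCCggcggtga
Rps24 (chr14:24490663-24490692, + strand): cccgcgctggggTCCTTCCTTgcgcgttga
Rps19 (chr7:24884577-24884606, + strand): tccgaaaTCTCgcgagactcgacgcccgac
Rps2 (chr17:24720048-24720077, + strand): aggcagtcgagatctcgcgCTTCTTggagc
Rpsa (chr9:120127751-120127780, + strand): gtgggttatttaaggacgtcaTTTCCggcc
Rps28 (chr17:33824548-33824577, - strand): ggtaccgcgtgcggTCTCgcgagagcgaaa
A run of at least 7 pyrimidines lay within the 30-base window at 13 of the 28 member start sites (46.4%, in 13 members), against 18.6% of the 32851 promoters in the table. Not all of these runs crossed the annotated start. Those of Rps15a and Rps25 lay wholly before it, and those of Rps12, Rps26 and Rps19 wholly after it. The longest, of 16 bases, was that of Fau. Over the whole 300-base promoter, searched on both strands, CGGAAG (the core that ETS-family factors read) was present at 67.9% of member start sites and 16.9% of all promoters. AAGATGG, the core of the YY1 motif, stood at 21.4% against 6.34%, GGGCGG, the core of the GC box, at 57.1% against 35.7%, and TATAAA at 7.14% against 13.6%. Each motif was searched on its own, and overlapping motifs can share letters, such as AAG in CGGAAG and AAGATGG or CGG in GGGCGG and CGGAAG. These are matches of letters and not shown sites, and several of the start sites printed above (Rps19, Rps2, Rpsa and Rps28) have only short runs at the annotated position. Rps19 was counted among the 13 members through another annotated start (window chr7:24884898-24884927), with a run of 7 bases.

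How deeply each library was sequenced cannot be read from TPM, and no counting interval is given. The tissue label was checked with 10 neuron markers, none of which was at 0. Their summed level was 3979 to 4857 TPM and was lowest in control replicates 2 and 3 (4090 and 3979 TPM). The largest levels in that sum were those of Snap25 and Slc17a7 (means of 1811 and 1475 TPM). Both are found in neurons outside the hippocampus too, as is Rbfox3, so the sum shows neurons more than the region. The 6 astrocyte markers summed to 1425 to 1961 TPM and were likewise lowest in those 2 libraries (1629.7 and 1425 TPM). Red blood cell genes (4 of 5 listed are in the file, with Hba-a1 listed at 0 in 2 libraries) summed to 3262 to 5149 TPM in the controls, 2268 to 4314 TPM after P1-7 and 2155 to 2619 TPM after P8-14. The 5 endothelial markers summed to 144.5 to 171.9 TPM in the controls, 119.7 to 141.7 TPM after P1-7 and 134.6 to 146.4 TPM after P8-14. That lower sum came from Cldn5, a tight-junction protein, at -0.43 and -0.30 in log2(TPM + 1) against control, whereas Pecam1, Flt1, Cdh5 and Tek all had means above control in both comparisons. Myelin markers (8 genes) summed to 9668 TPM in control replicate 1 and to 13233 to 18936 TPM in the other 8 libraries. On the log2(TPM + 1) scale all 8 genes had means above control in both comparisons, with median differences of 0.25 and 0.13. In TPM, however, the P8-14 means of Cnp (909.8 against 915.4 TPM) and Mog (236.4 against 239.0 TPM) were below control. The 6 microglia markers summed to 314.2 to 391.5 TPM in the controls and 332.5 to 378.7 TPM in the exposed libraries. That sum joined markers that moved in opposite directions. C1qa averaged 98.8 TPM in the controls, 78.95 TPM after P1-7 and 80.4 TPM after P8-14, and Tmem119 22.6, 18.8 and 17.8 TPM. The other 4 had means above control in both comparisons. Choroid plexus markers (12 genes) summed to 10671 to 12927 TPM in 5 libraries (1 control, 2 of PFOS P1-7 and 2 of PFOS P8-14) and to 155.7 to 267.1 TPM in the other 4. The deviation of each gene from its own mean ran with transcript length across 14210 genes, with a Spearman rho of -0.41 and -0.49 in control replicates 2 and 3, -0.19 in PFOS P8-14 replicate 2 and 0.14 to 0.43 in the other 6 libraries. With GC content, rho in replicates 1, 2 and 3 was 0.19, 0.06 and 0.14 in the controls. It was 0.21, -0.34 and -0.36 after P1-7 and 0.31, -0.15 and -0.25 after P8-14. Genes are not independent replicates, and these rho values describe the libraries only. The part of the cell type markers in the results below was not tested, except for Ttr, and the length trend is taken up where it touches the members.

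Summed over the set, the small-subunit genes were highest in 2 of the 3 controls and did not separate the third from the exposed libraries. Their TPM summed to 25445, 33440 and 31368 in control replicates 1, 2 and 3, to 23795, 23844 and 24078 in the PFOS P1-7 replicates and to 23314, 25941 and 24549 in the PFOS P8-14 replicates. Control replicate 1 therefore lay among the exposed libraries, below PFOS P8-14 replicate 2, and control replicates 2 and 3 stood above all others. The group means were 30084 ± 4149 TPM (SD, n = 3) in the controls, 23906 ± 152 TPM after P1-7 and 24601 ± 1314 TPM after P8-14, so that the control mean exceeded both exposed means by more than the control SD. In share, the members made up 2.54% to 3.34% of all TPM in the controls, 2.38% to 2.41% after P1-7 and 2.33% to 2.59% after P8-14. The summed level of the 47 genes of large-subunit proteins moved alongside, and the ratio of the large-subunit to the small-subunit sum stayed between 1.44 and 1.50 in all 9 libraries (1.47 ± 0.026 in controls, 1.48 ± 0.023 after P1-7 and 1.47 ± 0.0053 after P8-14).

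**Figure D1:**
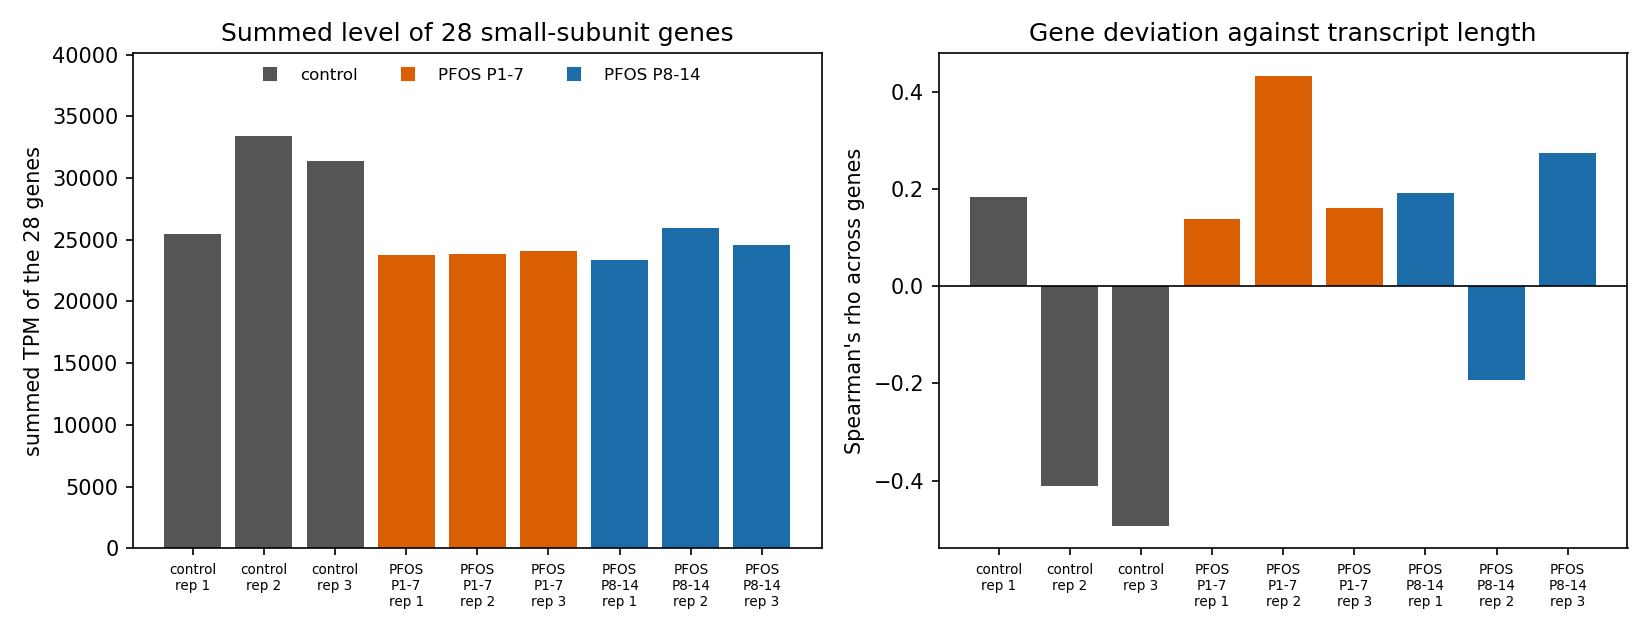
Left, the summed TPM of the 28 small-subunit genes in each of the 9 libraries, 1 bar per library with the axis from 0; right, Spearman's rho across 14210 genes between transcript length and the deviation of each gene from its mean in that library. Control replicates 2 and 3 have the 2 highest sums (33440 and 31368 TPM) and the 2 lowest rho values (-0.41 and -0.49).

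Within the set, the levels per transcript length ranged widely. Rps29, a zinc-binding protein of the subunit head, had the highest mean over the 9 libraries (2477 TPM), followed by Rps15 (2063 TPM), a head protein near the decoding site, and Rps21 (1966 TPM), a small protein of the body. The lowest were Rps27 (15.8 TPM), Rps15a (70.3 TPM) and Rps3 (282 TPM), although their products are needed in the same number as the rest. For Rps15a the median annotated transcript length (GENCODE M21) was 5130 bases, the longest of the set. For Rps27 a near-identical copy was listed at a far higher level, as described at the end. Whether these annotated lengths set the low TPM of Rps15a was not tested. Across the 28 members, the log2 differences from control described next had a Pearson r of -0.01 (P1-7) and -0.11 (P8-14) with transcript length and of -0.30 and -0.19 with GC content, given as a description over genes that share libraries.

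After PFOS on days 1 to 7, all 28 members had a mean below control on the log2(TPM + 1) scale, where 34.5% of all tested genes did. The median difference of the members was -0.29, against 0.09 for all tested genes. By limma with Benjamini-Hochberg adjustment over the 14336 genes, no member and 0% of all genes passed an adjusted p of 0.05, the smallest adjusted p of a member being 0.181. At an unadjusted p below 0.05, 12 members were lower and 0 higher, against 5.79% of all genes lower and 12.5% higher. Every exposed library lay below every control in 9 members (Rpsa, Rps2, Rps3, Rps9, Rps12, Rps13, Rps18, Rps20 and Rps24), against 6.56% of all genes.

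The smallest p belonged to Rps2, whose protein lines the channel through which mRNA enters the subunit. Rps2 stood at 1409, 1611 and 1593 TPM in control replicates 1, 2 and 3, at 1184, 1193 and 1244 TPM after P1-7 and at 1197, 1352 and 1319 TPM after P8-14. Every control was above every exposed library. The P1-7 difference was -0.35 (SE 0.0853, adjusted p = 0.181). Rpsa, also known as the laminin receptor precursor and placed near the mRNA exit on the back of the subunit, measured 678, 810.0 and 805 TPM in the controls, 613, 591 and 589 TPM after P1-7 and 649.9, 654 and 588 TPM after P8-14. Its groups did not overlap either, and the P1-7 difference was -0.35 (SE 0.0879, adjusted p = 0.181).

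Among the head proteins, Rps20 and Rps19 had the largest differences from control of all members. Rps20 (chr4:3831584-3835655 in GRCm38.p6), a protein of the head near Rps3, was at 791, 1069 and 1118 TPM in the controls, 748, 596 and 687 TPM after P1-7 and 664, 705 and 652 TPM after P8-14. All 6 exposed libraries were below the lowest control, replicate 1, and the P1-7 difference was -0.54 (SE 0.135, adjusted p = 0.181). Rps19, needed for processing of the small-subunit rRNA and mutated in Diamond-Blackfan anaemia in people, gave 288, 585 and 564 TPM in the controls, 249, 256 and 299 TPM after P1-7 and 234, 274 and 274 TPM after P8-14. Control replicate 1 was close to the exposed libraries and below PFOS P1-7 replicate 3, whereas the other 2 controls were far above all of them. The P1-7 difference of Rps19 was -0.77 (SE 0.232, adjusted p = 0.207), with a 95% confidence interval of -1.29 to -0.25. Rps24, a body protein also mutated in Diamond-Blackfan anaemia, had 828, 999 and 932 TPM in the controls, 814, 681 and 703 TPM after P1-7 and 794, 767 and 708 TPM after P8-14, all exposed values being below all controls. Its P1-7 difference was -0.33 (SE 0.0998, adjusted p = 0.208).

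Of the other 7 members lower at an unadjusted p below 0.05 after P1-7, 4 are head proteins. Rps12, at the beak of the head, stood at 1250.4, 1602 and 1548 TPM in the controls, 1189, 1204 and 1157 TPM after P1-7 and 1235, 1397 and 1236 TPM after P8-14, and its P1-7 libraries were below every control while PFOS P8-14 replicate 2 was not. Rps18, a head protein that bridges to the large subunit, averaged 916 ± 75.6 TPM (SD, n = 3) in controls and 759 ± 44.3 TPM after P1-7, and Rps10 1051 ± 208 against 783 ± 56.9 TPM. Rps3, at the mRNA entry and the least abundant head protein after this scaling to length, was at 294, 323 and 299 TPM in the controls, 273, 265 and 282 TPM after P1-7 and 268, 269.9 and 266 TPM after P8-14. Its differences were small, -0.16 and -0.19, but all 6 exposed values lay below all controls. The body proteins Rps4x, Rps9 and Rps13 had P1-7 differences of -0.42, -0.24 and -0.25, with adjusted p between 0.241 and 0.257 by limma. Their control means were 742 ± 183, 1055 ± 76.6 and 842 ± 20.1 TPM.

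**Figure D2:**
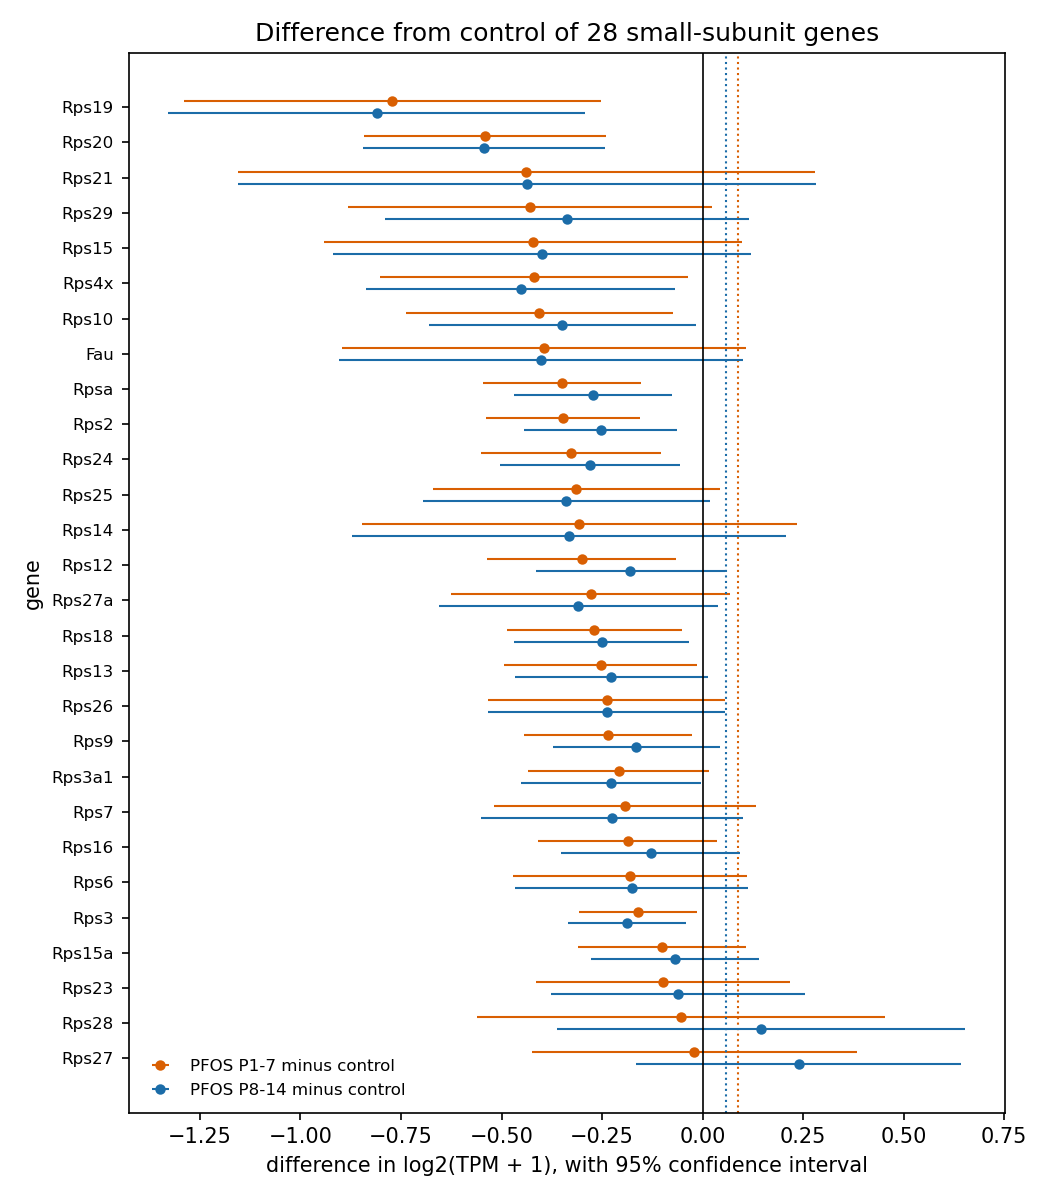
Difference from control of each of the 28 genes in log2(TPM + 1), as points with 95% confidence intervals from limma, PFOS P1-7 in orange and PFOS P8-14 in blue (n = 3 per group); the dotted lines mark the median of all tested genes (0.09 and 0.06). All 28 orange and 26 of 28 blue points lie below 0, with Rps19 and Rps20 farthest from it, and no gene passed an adjusted p of 0.05.

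The remaining 16 members did not reach an unadjusted p of 0.05 after P1-7, several of them with widely spread controls. Rps15, which takes part in export of the subunit from the nucleus, was at 1662, 3089.9 and 2769 TPM in the controls, 1501, 1991 and 1978 TPM after P1-7 and 1471, 2072 and 2029 TPM after P8-14. Rps21 was at 1415, 3157 and 2700.5 TPM in the controls, 1283, 2084 and 1813 TPM after P1-7 and 1174, 2071 and 1998 TPM after P8-14. In both genes control replicates 2 and 3 were highest, control replicate 1 was below PFOS P1-7 replicates 2 and 3, and the replicate labelled 1 was the lowest of its group in all 3 groups. The differences of Rps15 and Rps21 after P1-7 were -0.42 (adjusted p = 0.348) and -0.44 (adjusted p = 0.458). Rps14, at the platform, averaged 1516 ± 415 TPM in controls and 1204 ± 209.6 TPM after P1-7, and Rps25, needed by some viral internal ribosome entry sites, 597 ± 142 against 470.1 ± 14.6 TPM. Their P1-7 differences were -0.31 (adjusted p = 0.489) and -0.31 (adjusted p = 0.317). The body proteins Rps3a1, Rps7 and Rps26 had differences of -0.21, -0.19 and -0.24, with adjusted p from 0.297 to 0.473.

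A pair of members is translated as fusions from which the ribosomal protein is then cut free. Rps27a encodes ubiquitin joined to a head protein and stood at 727, 1149.9 and 1006 TPM in the controls, 747, 762 and 827 TPM after P1-7 and 676, 842 and 776 TPM after P8-14. Fau encodes a ubiquitin-like protein joined to a body protein and stood at 697, 1381 and 1305 TPM in the controls, 734, 858 and 879.9 TPM after P1-7 and 747, 903 and 806 TPM after P8-14. In both genes control replicates 2 and 3 were above all exposed libraries. Control replicate 1 was the lowest of all 9 libraries in Fau, and in Rps27a it was below the 3 P1-7 libraries. The differences of Rps27a were -0.28 (adjusted p = 0.353) and -0.31 (adjusted p = 0.468) and those of Fau -0.39 (adjusted p = 0.361) and -0.40 (adjusted p = 0.491), by limma.

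Rps6, the substrate of the S6 kinases downstream of mTORC1, has one of the pyrimidine runs printed above. It was at 357, 493 and 463 TPM in the controls, 339.8, 409.7 and 402 TPM after P1-7 and 347, 409.7 and 396 TPM after P8-14, again with control replicates 2 and 3 above the rest and the replicate labelled 1 lowest in each group. Its differences were -0.18 (SE 0.13, 95% confidence interval -0.47 to 0.11) and -0.18 (adjusted p = 0.452 and 0.569), and neither passed the test. Rps23, a protein of the decoding centre, was at 1233, 1745 and 1646 TPM in the controls, 1264, 1496 and 1523 TPM after P1-7 and 1314, 1578 and 1507 TPM after P8-14. The control and exposed ranges of Rps23 overlapped, with differences of -0.10 and -0.06, the latter with the largest p of any member in that comparison (adjusted p = 0.866).

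After PFOS on days 8 to 14, 26 of the 28 members had a mean below control, where 37.9% of all tested genes did. The median difference was -0.25, against 0.06 for all tested genes. No member and 0% of all genes passed an adjusted p of 0.05 by limma with Benjamini-Hochberg adjustment, the smallest adjusted p of a member being 0.424. At an unadjusted p below 0.05, 10 members were lower and 0 higher, against 4.65% of all genes lower and 6.33% higher. Every exposed library was below every control in 7 members (Rpsa, Rps2, Rps3, Rps13, Rps19, Rps20 and Rps24), against 5.99% of all genes. Both exposed groups were set against the same 3 controls, so the resemblance of these counts to those for P1-7 is partly built in.

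In the P8-14 comparison the 5 smallest p belonged to Rps20, Rps19, Rpsa, Rps2 and Rps3. Rps20 differed by -0.54 (SE 0.135, adjusted p = 0.424). Rps19 differed by -0.81 (SE 0.232, adjusted p = 0.426), and in this window all 3 exposed libraries were below control replicate 1 as well. The differences of Rpsa, Rps2 and Rps3 were -0.27, -0.25 and -0.19, each with an adjusted p of 0.426 by limma. Rps24, Rps4x, Rps18, Rps10 and Rps3a1 completed the 10, with differences of -0.28, -0.45, -0.25, -0.35 and -0.23.

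Rps27 and Rps28 were the only members with a mean above control after P8-14, and neither passed the test. Rps28, a small head protein near the exit site of the mRNA, was at 2028, 1287 and 1127 TPM in the controls, 1782, 1303 and 1133 TPM after P1-7 and 1827, 1449 and 1503 TPM after P8-14. The libraries labelled replicate 1 were the highest of their group, and control replicate 1 was the highest of all. The difference of Rps28 was 0.15 (SE 0.227, adjusted p = 0.789) after P8-14 and -0.05 after P1-7. Rps27 was at 14.1, 11.4 and 19.9 TPM in the controls, 12.2, 15.1 and 16.8 TPM after P1-7 and 17, 18.3 and 17.6 TPM after P8-14, with differences of -0.02 (adjusted p = 0.958), the largest p of the members after P1-7, and 0.24 (adjusted p = 0.577).

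Between the windows, P8-14 against P1-7, the members were close. The differences ran from -0.04 (Rps19) to 0.26 (Rps27) around a median of 0.02, where the median of all tested genes was -0.03, and 11 members were below 0, where 61.2% of all genes were. No member reached an unadjusted p of 0.05 in either direction, where 0.635% of all genes were lower and 0.467% higher, and 0% passed an adjusted p of 0.05 by limma with Benjamini-Hochberg adjustment. The 5 smallest p were those of Rps27 (0.26), Rps12 (0.12), Rps2 (0.09), Rps28 (0.20) and Rpsa (0.08). Rps3, Rps7 and Rps27a, the members below 0 with the smallest p, differed by -0.03, -0.03 and -0.03, and Rps26 had the largest p, at a difference of -0.0004. Every member had an adjusted p of 0.9998. These values leave room for moderate differences: the 95% confidence interval was -0.56 to 0.48 for Rps19 and -0.17 to 0.12 for Rps3, the member with the smallest SE.

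**Figure D3:**
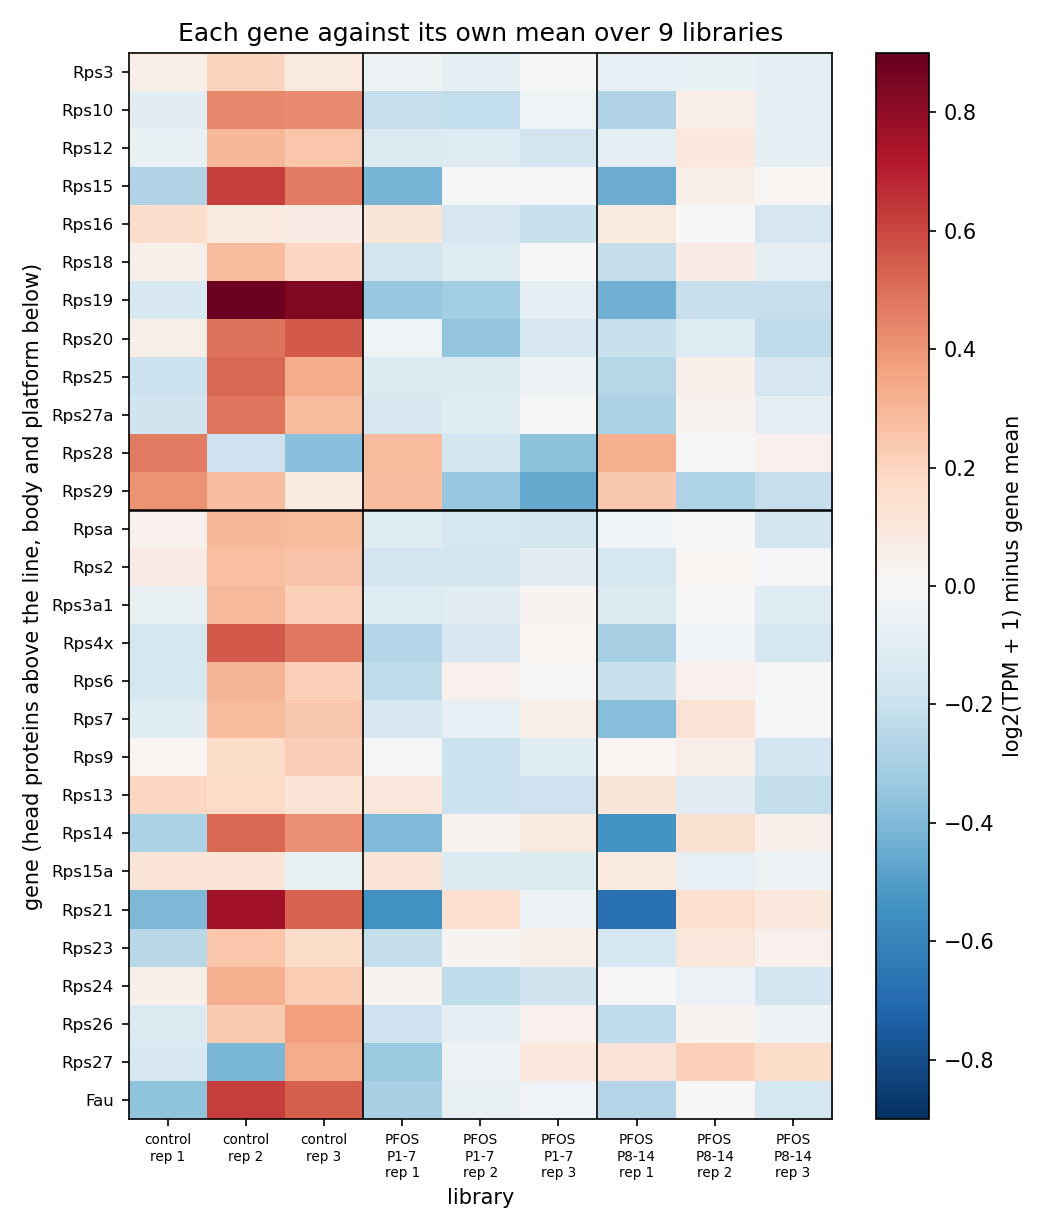
log2(TPM + 1) of each small-subunit gene minus its own mean over the 9 libraries, genes in rows (head proteins above the line, body and platform proteins below) and libraries in columns. Control replicates 2 and 3 are above the gene mean in most rows, Rps19 and Rps21 most of all, and Rps28 and Rps29 are highest, within each group, in the library labelled replicate 1.

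The members' values were carried by particular libraries. In 22 of the 28 members control replicates 2 and 3 were both above the 7 other libraries, a pattern found in 9.31% of all tested genes. Set against control replicate 1 alone, all 3 P1-7 libraries were lower in 13 members and all 3 P8-14 libraries in 11, where 26.4% and 27.5% of all tested genes were. Without control replicate 1, 22 members were lower at an unadjusted p below 0.05 after P1-7 and 21 after P8-14, where 8.83% and 8.67% of all genes were lower and 25.2% and 21.5% higher. In that fit, 16 and 14 members passed an adjusted p of 0.05 by limma, all lower, against 4.48% and 3.41% of all genes lower at that threshold. Without control replicate 2, the members lower at an unadjusted p below 0.05 numbered 5 and 4, against 3.5% and 2.5% of all genes. Without control replicate 3 they numbered 7 and 6, against 3.69% and 2.87%, and in neither fit did a member pass the adjusted threshold. Leaving out PFOS P8-14 replicate 3 left 3 members lower in the P8-14 comparison, against 3.03% of all genes. Every one of these fits kept a negative median of the members in both comparisons, between -0.39 and -0.19.

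The members with the largest differences followed the same course. Rps19 was at -1.10 (P1-7) and -1.14 (P8-14) without control replicate 1, with adjusted p of 0.00491 and 0.00999 by limma, and at -0.59 and -0.63 without control replicate 2, with adjusted p of 0.525 and 0.885. Rps20 was at -0.70 in both comparisons without control replicate 1 and at -0.48 in both without control replicate 2. Rpsa was at -0.43 and -0.36 without control replicate 1 and at -0.31 and -0.23 without control replicate 2.

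Since transcript length ran with the libraries in which the members were high, each library's trend on length was also removed before the test. The median of the members was then -0.15 after P1-7 and -0.15 after P8-14, with medians of all genes at -0.01 and -0.01. In that fit 26 and 25 members were below 0, and 7 and 6 were lower at an unadjusted p below 0.05, where 8.30% and 6.16% of all genes were. Rps20 (-0.69 and -0.65), Rps19 (-0.65 and -0.70) and Rpsa (-0.37 and -0.29) kept differences of similar size, whereas Rps24 went to -0.14 and -0.12 and Rps3 to -0.07 and -0.11. None passed an adjusted p of 0.05 in that fit. The value of each gene there depends on its median annotated length. That was 3706 bases for Rps20, 1768.5 for Rpsa and 774 for Rps19, against 525 for Rps24 and 952 for Rps3. Whether the transcripts present had these lengths was not tested. Without both the trend and control replicate 1, Rps19, Rps20, Rps4x and Rpsa passed the adjusted threshold in both comparisons, where 2.14% and 1.28% of all genes were lower at it. With log2 Ttr as a covariate the medians of the members were -0.29 and -0.27, with 11 and 12 lower at an unadjusted p below 0.05, where 6.17% and 5.18% of all genes were lower and 17.1% and 10.8% higher. With median-of-ratios scaling, 15 and 11 members were lower at that threshold, and the shares of all genes lower and higher at it turned to 9.84% and 7.21% after P1-7 and to 7.05% and 4.12% after P8-14. With quantile normalization 7 and 6 members were lower, and those shares were 9.27% and 7.28% after P1-7 and 6.88% and 4.56% after P8-14.

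**Figure D4:**
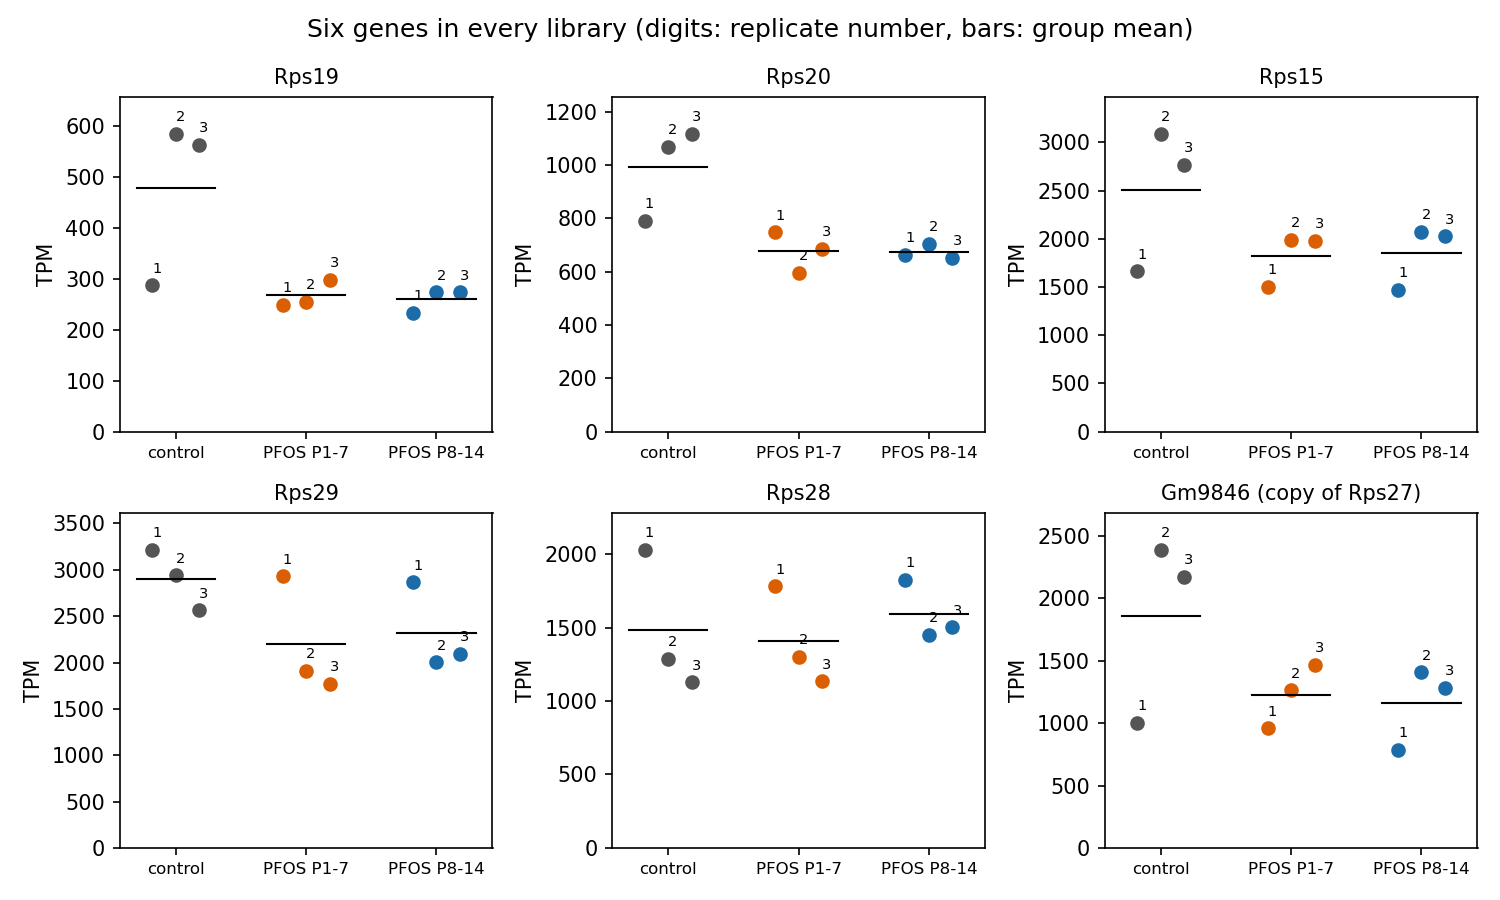
TPM of Rps19, Rps20, Rps15, Rps29, Rps28 and Gm9846, the near-identical copy of Rps27, in every library; digits give the replicate number, horizontal bars the group mean (n = 3), and each axis starts at 0. In Rps19 and Rps20 all exposed libraries sit at or below the level of control replicate 1 apart from PFOS P1-7 replicate 3 in Rps19, and in Rps28 and Rps29 the libraries numbered 1 are the highest of each group.

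The members did not all vary in the same way. For each member the Pearson correlation of its log2 deviation with the mean of the other members over the 9 libraries was above 0.8 in 20 members, and it was below 0 in Rps28 (-0.57) and Rps27 (-0.12). Low values were also found in Rps15a (0.06), Rps29 (0.18) and Rps16 (0.28). These are descriptions over 9 libraries that fall into 3 groups. Of the 28, 15 members were lowest in the library labelled replicate 1 in all 3 groups, where 8.51% of all tested genes were. A further 5 members (Rps13, Rps15a, Rps16, Rps28 and Rps29) were highest there in all 3 groups, where 13.6% of all tested genes were. Over the members, the deviations of same-numbered libraries from their group means correlated from 0.48 to 0.91, and those of differently numbered libraries from -0.86 to 0.81. In 6 of 9 libraries the best correlation in another group was with their own number, against 4 of 9 over all genes. Rps29 was at 3214, 2939.8 and 2564 TPM in the controls, 2932, 1909 and 1769 TPM after P1-7 and 2867, 2001 and 2096 TPM after P8-14, with a P1-7 difference of -0.43 (adjusted p = 0.29). Rps15a was at 76.2, 76 and 67 TPM in the controls, 76.1, 64.2 and 64.2 TPM after P1-7 and 74.4, 66.5 and 67.9 TPM after P8-14, and its differences were -0.10 and -0.07. The highest library of Rps15a in each group was thus the one labelled 1. Rps16, whose tail reaches the tRNA in the subunit's P site, averaged 731 ± 23.2 TPM in controls, 645 ± 77.6 TPM after P1-7 and 669.6 ± 54.8 TPM after P8-14.

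Measured as the change from control minus the mean change of the 28 members, Rps19 had the lowest value in both comparisons. Rps19 made up 1.13%, 1.75% and 1.80% of the summed member TPM in the controls, 1.05%, 1.07% and 1.24% after P1-7 and 1.00%, 1.06% and 1.12% after P8-14. Control replicate 1 again lay within the range of the P1-7 libraries, and the other 2 controls above it. Its change relative to the mean change of the members was -0.48 (SE 0.165, adjusted p = 0.0757 by limma) after P1-7 and -0.55 (adjusted p = 0.171) after P8-14. The unadjusted p of that limma fit were 0.0145 and 0.00653. The member mean of each library was subtracted from all 14336 tested genes before the adjustment. These adjusted p therefore also depend on how genes outside the set moved against the members. Rps27, as listed under its own symbol, had the highest relative change, at 0.27 (adjusted p = 0.281) and 0.50 (adjusted p = 0.171), and neither gene passed the adjusted threshold. Between the windows the relative change was again highest in Rps27 (0.23) and lowest in Rps19 (-0.07). Rps27 and its copy Gm9846 had means of 15.8 and 1415 TPM. With both summed, a sum made up mostly of Gm9846, the P8-14 difference from control was -0.61. How reads were assigned between Rps27 and Gm9846 was not tested.

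By position in the subunit and by ancestry the members gave similar counts. The 12 head proteins had median differences of -0.31 and -0.32 from control after P1-7 and P8-14, with 6 and 5 lower at an unadjusted p below 0.05. The 16 proteins of the body and platform had medians of -0.25 and -0.23, with 6 and 5 lower. The 13 members with a bacterial counterpart had medians of -0.27 and -0.25, with 7 and 5 lower, and the 15 without one -0.30 and -0.28, with 5 and 5 lower. No difference between these groups of members was tested.

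Rps27, a zinc-finger protein of the body with a pyrimidine run at its start, is the only member with a near-identical copy listed beside it. The table lists it at 15.8 TPM on average, and lists Gm9846, named Rps27rt in RefSeq, at 1415 TPM. The annotated transcript of the copy matched that of Rps27 at 100% identity over 341 bases, 98.8% of the Rps27 transcript, so reads of the genes can hardly be told apart. Gm9846 stood at 1004, 2388 and 2174 TPM in the controls, 958, 1265 and 1467 TPM after P1-7 and 785, 1409 and 1285 TPM after P8-14, which is the pattern of most other members, with control replicates 2 and 3 on top and the libraries labelled 1 lowest. With the values of Rps27 and Gm9846 summed, the P8-14 difference of Rps27 turned from 0.24 to -0.61 (adjusted p = 0.478 by limma). For 12 members, 86 copies with at least 95% identity over at least 80% of the transcript are annotated in GENCODE M21, and Gm9846 was the only one of them under a symbol of its own in the table. Rps2, Rps12 and Rps6 had the most annotated copies, at 24, 23 and 10. How reads shared with such copies were assigned was not tested.

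Rack1, a scaffold protein bound to the head of the subunit and listed under its older symbol Gnb2l1, was not among the 28. It stood at 438, 430.5 and 412 TPM in the controls, 379, 360.4 and 367 TPM after P1-7 and 387, 382 and 374 TPM after P8-14, with no overlap between exposed and control libraries. Its differences were -0.21 (SE 0.0626, adjusted p = 0.205) and -0.16 (SE 0.0626, adjusted p = 0.429) by limma, both at an unadjusted p below 0.05. Of 5 listed paralogs of small-subunit genes, 3 were tested, and all had means below control without reaching an unadjusted p of 0.05. They were Gm9846, Rps4l (listed as Rps4y2, -0.22 and -0.02) and Rps27l, which stood at 34.4, 105 and 132 TPM in the controls, 60.3, 66.3 and 87.1 TPM after P1-7 and 54, 71.3 and 63.3 TPM after P8-14.

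Genes around the small subunit gave a mixed picture, and none passed an adjusted p of 0.05 by limma. At an unadjusted p below 0.05, the threshold of the counts that follow, 5.79% and 4.65% of all tested genes were lower and 12.5% and 6.33% higher. Over all these lists, the smallest adjusted p was 0.181 after P1-7 and 0.424 after P8-14. Of the 47 large-subunit protein genes, 46 and 45 were below control after P1-7 and P8-14, 19 and 17 of them (40.4% and 36.2%) at that threshold and 0 higher, with medians of -0.30 and -0.25. The smallest p was that of Rplp1, a stalk protein, at -0.67 and -0.64. The 29 genes of the mitochondrial small subunit had medians of -0.15 and -0.10, with 10 and 5 lower (34.5% and 17.2%) and 1 and 1 higher. Mrps17 (-0.25 and -0.31) and Mrps22 (0.35 and 0.20) had the smallest p there, in opposite directions.

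The 50 factors that assemble the small subunit in the nucleolus and cytoplasm had medians of 0.10 and 0.10, with 1 and 2 lower and 4 and 4 higher, near or below the shares of all genes. Rrp7a (-0.27 and -0.25) was below control and Dcaf13 (0.15 and 0.25) above, and Imp3 had the smallest p between the windows (0.21). Of the initiation factors that bind the subunit, 20 of 21 were tested, with medians of 0.03 and 0.02, 0 lower in either comparison and 5 and 1 higher, among them Eif2s3x (0.20 and 0.13) and Eif3c (0.27 and 0.25). The 14 other genes of TOP mRNAs, such as elongation factors, had medians of 0.04 and 0.09, with 3 and 1 lower and 3 and 2 higher. Npm1, a nucleolar chaperone, was above control (0.29 and 0.28) and Eef1b2, an elongation factor subunit, below (-0.27 and -0.15). The 18 genes of mTORC1 and the S6 kinases had medians of 0.12 and 0.07, with 1 lower in each comparison, Akt1s1 (-0.21 and -0.25), and 0 higher; between the windows the smallest p was that of Pdcd4 (-0.13). In these 4 lists the medians were thus above 0, next to medians of 0.09 and 0.06 for all tested genes, whereas those of the large-subunit and mitochondrial small-subunit lists were below 0, as were those of the members.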

How the data were processed

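The authors deposited 1 table of TPM per gene symbol for 9 hippocampus libraries (3 control, 3 PFOS P1-7, 3 PFOS P8-14), made on mm10, per the submitters' processing notes, with bcl2fastq, with fastp (0.21.0), with the aligner STAR (2.5.3a) and with RSEM (1.3.3). Per the labels' protocols the libraries were made from total RNA with a stranded mRNA kit (TruSeq). The gene annotation is not given in the sources used here, and the depth of each library is unknown, since TPM do not hold it.

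Here log2(TPM + 1) was tested with limma 3.58.1 (R 4.3.3) for genes of at least 1 TPM in at least 3 libraries. The fit had 1 mean per group over all 9 libraries, moderated variances with a mean-variance trend and two-sided tests with Benjamini-Hochberg adjustment over 14336 genes, called at an adjusted p below 0.05. The pipeline was tested on simulated data. The members, the gene lists and the tests were chosen with earlier results of these data known.

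Genes named with values were, for each comparison, the 5 members with the smallest p, that with the largest p and those against the majority. They were joined by the 3 highest and 3 lowest by TPM, Rps27a, Fau, Rps6, the extremes relative to the member mean, the leading gene of each other list and Rack1. Some genes that the rule names are not reported here. Further members are given to complete counts, and the values of Rps27l are given although it led in no comparison. Copies were sought with blastn 2.17.0 in GENCODE M21 transcripts, start sites were taken from RefSeq (GRCm38.p6), and figures were drawn with matplotlib 3.10.9 in Python 3.11.15. Alternatives covered the pseudocount, filter, scaling, moderation, array weights, the replicate block, leaving out each library and removal of the length trend. Chosen after seeing the data were the removal of length and GC trends together, log2 Ttr as a covariate, Rps27 counted with its copy, and the length trend removed with each control left out.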

Additional observations from a re-analysis of the deposited data

How the results depend on the processing

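With 3 libraries per group and controls that differ among themselves, the counts of members rest on single libraries, and the cause was not tested. All values are limma differences in log2(TPM + 1), given as P1-7 and then P8-14 against control. Over the 9 fits that leave out 1 library each, members lower at an unadjusted p below 0.05 ranged from 5 to 22 and from 3 to 21, members higher from 0 to 0 and from 0 to 1, member medians from -0.39 to -0.21 and from -0.34 to -0.19, and genes called from 0 to 2663 and from 0 to 1739. Between the windows the median ranged from -0.03 to 0.06, with 0 members at that threshold. Array weights called 2914 and 1053 genes in either direction, and 5.32% and 2.79% of all genes were called lower. Of the members 16 and 10 were called, all lower. At an unadjusted p below 0.05 array weights gave 24 and 21 members lower, against 10% and 9.31% of all genes. Quantile normalization gave 7 and 6, against 9.27% and 6.88%. With the replicate block 23 and 21 members were lower at an unadjusted p below 0.05 (7.1% and 6.1% of all genes lower, 14.6% and 8.68% higher), the smallest adjusted p of a member was 0.124 and 0.237, and 0 genes were called. Replicate numbers were not taken as pairs: same-numbered libraries correlated from -0.47 to 0.53 over all genes, and 4 of 9 libraries correlated best with their own number in another group. Over the members alone, the same-numbered correlations ran from 0.48 to 0.91, all 9 positive, and 6 of 9 libraries correlated best with their own number. Differently numbered libraries of different groups correlated from -0.86 to 0.81 over the members. Those pairs were all positive between replicates 2 and 3 and all negative with replicate 1. With the length trend removed the members lower were 7 and 6 (8.3% and 6.16% of all genes) and the members higher 0 and 1 (5.02% and 3.6%). The P1-7 median was -0.146, as it was with the replicate block added. With that block 9 and 12 members were lower (10.6% and 8.97% of all genes) and 1 was higher after P8-14 (4.86%). With length and GC trends removed the members lower were 7 and 5 (7.56% and 6.56% of all genes), with 1 higher after P8-14 (4.17% of all genes). Removing the length trend and control replicate 1 called 640 and 389 genes. In that fit 1 and 2 members were higher at an unadjusted p below 0.05 (10.5% and 10.2% of all genes). Removing the length trend without control replicate 2 gave 5 and 3 members lower (4.99% and 3.18% of all genes) and medians of -0.072 and -0.081. Without control replicate 3, the same removal gave 5 and 4 members lower (6.12% and 4.25% of all genes). There the P1-7 median was -0.156, and 1 member was higher after P8-14 (2.38% of all genes). Of 1624 member differences recomputed, 32 changed sign. After P1-7, Rps23 turned to 0.051 (quantile), 0.077 and 0.0043 (length trend removed without control replicates 2 and 3). Rps27 turned to 0.049 (array weights), 0.226 (length trend removed, with or without block), 0.195 (length and GC), 0.182 (without control replicate 3), 0.098 (without PFOS P1-7 replicate 1) and 0.312, 0.029 and 0.336 (length trend removed without control replicates 1, 2 and 3). Rps28 turned to 0.062 (quantile), 0.048 (array weights), 0.176 (length trend removed, with or without block), 0.179 (length and GC), 0.197 (without control replicate 1), 0.089 (without PFOS P1-7 replicate 3), and 0.538 and 0.073 (length trend removed without control replicates 1 and 2). After P8-14, Rps23 turned to 0.034 (quantile), 0.018 (length trend removed, with or without block), 0.038 (without control replicate 2), 0.017 (without PFOS P8-14 replicate 1), and 0.105 and 0.033 (length trend removed without control replicates 2 and 3). Over the 9 fits that leave out 1 library each, Rps28 ranged from -0.238 to 0.197 and from -0.028 to 0.396. Rps12 turned to 0.035 and Rps29 to 0.053 (length trend removed without control replicates 2 and 1), Rps28 to -0.028 (without control replicate 3) and Rps27 to -0.615 (summed with its copy).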
